A study of Mus musculus with 96 samples.

Results

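The cytochrome P450 enzymes of the Cyp3a subfamily and Nr1i2, the nuclear receptor that switches them on, were followed in mouse liver as a set of 8 genes: Cyp3a11, Cyp3a13, Cyp3a16, Cyp3a25, Cyp3a41a, Cyp3a44, Cyp3a59 and Nr1i2. The members were the probe sets annotated to these symbols. This gave 8 probe sets for 7 of the 8 genes, out of 18194 genes with a probe set of their own. Nr1i2 had 2 probe sets, the Cyp3a41a probe set is shared with Cyp3a41b, and Cyp3a59 is not analysed here. The livers came from 96 male mice of 6 strains: C57BL6/J, C3H/HeJ and B6C3F1/J, which is the F1 cross between them, together with DBA/2J, 129S1/SvImJ and CBA/J. All mice arrived at 6 weeks of age, were caged alone and then spent 2 weeks on a purified diet at 84 kcal a week. From 8 weeks of age they ate either the control diet or a diet with 25% fewer calories, and tissue was taken at 22 weeks. Each of the 12 groups of strain and diet held 8 mice, with 1 array per mouse. The design asks how 14 weeks of calorie restriction changes liver gene expression and whether the answer depends on the strain. In whole liver, a lower signal from fewer cells of a type cannot be told apart from less RNA per cell.

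Cyp3a enzymes are haem proteins of the endoplasmic reticulum that oxidise steroids, bile acids and a wide range of drugs and toxins. Nr1i2 encodes the pregnane X receptor, which binds such compounds, pairs with the retinoid X receptor Rxra and binds to DNA near Cyp3a genes to raise their transcription. Cyp3a11 is the main drug-inducible member in adult mouse liver, Cyp3a13 is also made in the intestine, Cyp3a41a and Cyp3a44 are known as female-predominant liver enzymes, and Cyp3a16 is best known from fetal and newborn liver.

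The upstream sequences show how the family divides. The lines give the 250 bases before the first listed start of 5 genes, 5' to 3' on the gene's strand, from RefSeq on GRCm38.p6, which is the C57BL/6J sequence. The windows lie at chr5:145879855-145880104 for Cyp3a11, chr5:145720137-145720386 for Cyp3a41a, chr5:145805875-145806124 for Cyp3a44, chr5:146009619-146009868 for Cyp3a25 and chr5:137921620-137921869 for Cyp3a13, all on the minus strand. The Cyp3a13 gene is listed from 137892933 to 137925610, so its window lies inside the gene's span. Cyp3a25 had 2 listed starts, and only the first was read. Capitals mark matches on either strand to the nuclear receptor motifs AGGTCA and AGTTCA and to the HNF4A motif CAAAGTCCA.
Cyp3a11: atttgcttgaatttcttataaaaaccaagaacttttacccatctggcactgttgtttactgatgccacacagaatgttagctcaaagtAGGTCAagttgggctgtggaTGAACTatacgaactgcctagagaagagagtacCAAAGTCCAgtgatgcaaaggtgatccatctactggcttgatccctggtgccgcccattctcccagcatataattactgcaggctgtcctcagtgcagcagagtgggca
Cyp3a41a: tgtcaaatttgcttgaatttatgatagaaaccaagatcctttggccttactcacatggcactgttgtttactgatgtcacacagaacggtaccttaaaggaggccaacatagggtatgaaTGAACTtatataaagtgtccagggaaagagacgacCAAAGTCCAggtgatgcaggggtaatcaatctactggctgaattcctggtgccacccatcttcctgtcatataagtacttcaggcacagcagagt
Cyp3a44: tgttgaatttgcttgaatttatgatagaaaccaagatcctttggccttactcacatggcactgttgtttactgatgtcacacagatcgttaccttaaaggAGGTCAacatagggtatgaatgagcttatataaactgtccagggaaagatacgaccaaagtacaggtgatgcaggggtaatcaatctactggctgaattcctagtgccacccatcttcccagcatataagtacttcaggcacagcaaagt
Cyp3a25: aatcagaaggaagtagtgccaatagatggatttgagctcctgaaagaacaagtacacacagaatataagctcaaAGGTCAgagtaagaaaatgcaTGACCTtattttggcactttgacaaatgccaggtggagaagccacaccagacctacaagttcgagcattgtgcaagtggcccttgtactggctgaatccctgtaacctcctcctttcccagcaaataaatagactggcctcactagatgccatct
Cyp3a13: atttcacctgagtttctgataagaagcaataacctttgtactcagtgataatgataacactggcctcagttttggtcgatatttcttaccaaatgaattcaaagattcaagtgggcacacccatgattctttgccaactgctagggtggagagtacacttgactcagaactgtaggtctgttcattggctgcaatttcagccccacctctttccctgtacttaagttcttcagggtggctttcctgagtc
The Cyp3a41a and Cyp3a44 windows were identical at 94.4% of aligned positions, and those of Cyp3a41a and Cyp3a41b, which share a probe set, at 99.6%. Cyp3a16 was 90.9% to 92.9% identical to this group. How far their probes share targets was not tested. Cyp3a11 was 71.7% identical to both Cyp3a41a and Cyp3a44. The Cyp3a25 window was 94.8% identical to that of Cyp3a59 and only 52.0% identical to that of Cyp3a11. Whether the Cyp3a25 probe set also reads Cyp3a59 was not tested either. Cyp3a13 stood at 46.7% to 54.4% against every other Cyp3a window.

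Cyp3a25 held AGGTCA in both orientations, 176 and 155 bases before the start, and no AGTTCA. Cyp3a11 held AGGTCA 162 bases and AGTTCA 142 bases before the start, and CAAAGTCCA at 109 bases. Cyp3a41a held AGTTCA at 130 bases and CAAAGTCCA at 95 bases, while Cyp3a44 held AGGTCA alone, at 150 bases. None of these letters occurs in the Cyp3a13 window or in that of Nr1i2, and the STAT motif TTCNNNGAA was found in none of the 9 windows read. Over all 32534 RefSeq windows of this length, AGGTCA occurred in 14%, AGTTCA in 11.8%, TTCNNNGAA in 7.04% and CAAAGTCCA in 0.387%. A match is a description of the letters and was not tested as a binding site.

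Expression is given as the log2 of the signal on each array. Signals of different probe sets are not on a common scale per molecule, so each member is compared with itself across mice. Probe sets that reached their array's median signal on 8 or more of the 96 arrays were tested, and 7 of the 8 member probe sets did so. Cyp3a11, Cyp3a13 and Cyp3a25 were at or above the array median on all 96 arrays, and the Nr1i2 probe sets on 95 (the first, mean log2 signal 10.16) and 94 (the second, 9.88). Cyp3a41a/Cyp3a41b reached it on 65 arrays and Cyp3a44 on 51, so their levels sit near the middle of the array. Cyp3a16 reached it on 1 array, a CBA/J restricted liver, and was not among the probe sets tested.

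The arrays differed in the distribution of their signals. The array median lay between 6.21 and 7.50 on 94 arrays. It was 8.66 on the array of B6C3F1/J control replicate 2 and 8.30 on that of DBA/2J restricted replicate 6. The latter also stood apart in RNA integrity and labelling: its difference between 3' and 5' probe sets was 2.51 for Gapdh, against at most 0.25 on any other array, and 4.86 for Actb, against at most 2.02. CBA/J array medians averaged 7.29 in the restricted mice and 6.52 in the controls (two-sided exact permutation p = 0.000155, the smallest that the splits allow; adjusted p = 0.00354 over 91 comparisons). Of 8 hepatocyte markers 7 were measured, and their mean log2 signal ranged from 15.39 to 16.32 over the control groups and from 15.48 to 17.38 over the restricted groups. The highest of these, 17.38, was the CBA/J restricted group, against 15.76 in CBA/J controls. The mean of the lymphocyte markers also differed in CBA/J, 7.06 in restricted and 5.80 in control mice (exact permutation adjusted p = 0.0113). That of the cholangiocyte markers was 6.82 and 5.49 (adjusted p = 0.0503). The brightest and the dimmest signals rose in general in CBA/J, and those between did not. The median difference was 1.32 over the 100 tested probe sets of highest mean signal, and 0.68 over those ranked beyond 15000, with 75.4% of the latter above 0. Over the 10000 probe sets up to rank 15000 the median was -0.04, with 48% above 0. Over the 4000 ranked just above these, which include Cyp3a13, it was -0.16, with 41.1% above 0.

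**Figure D1:**
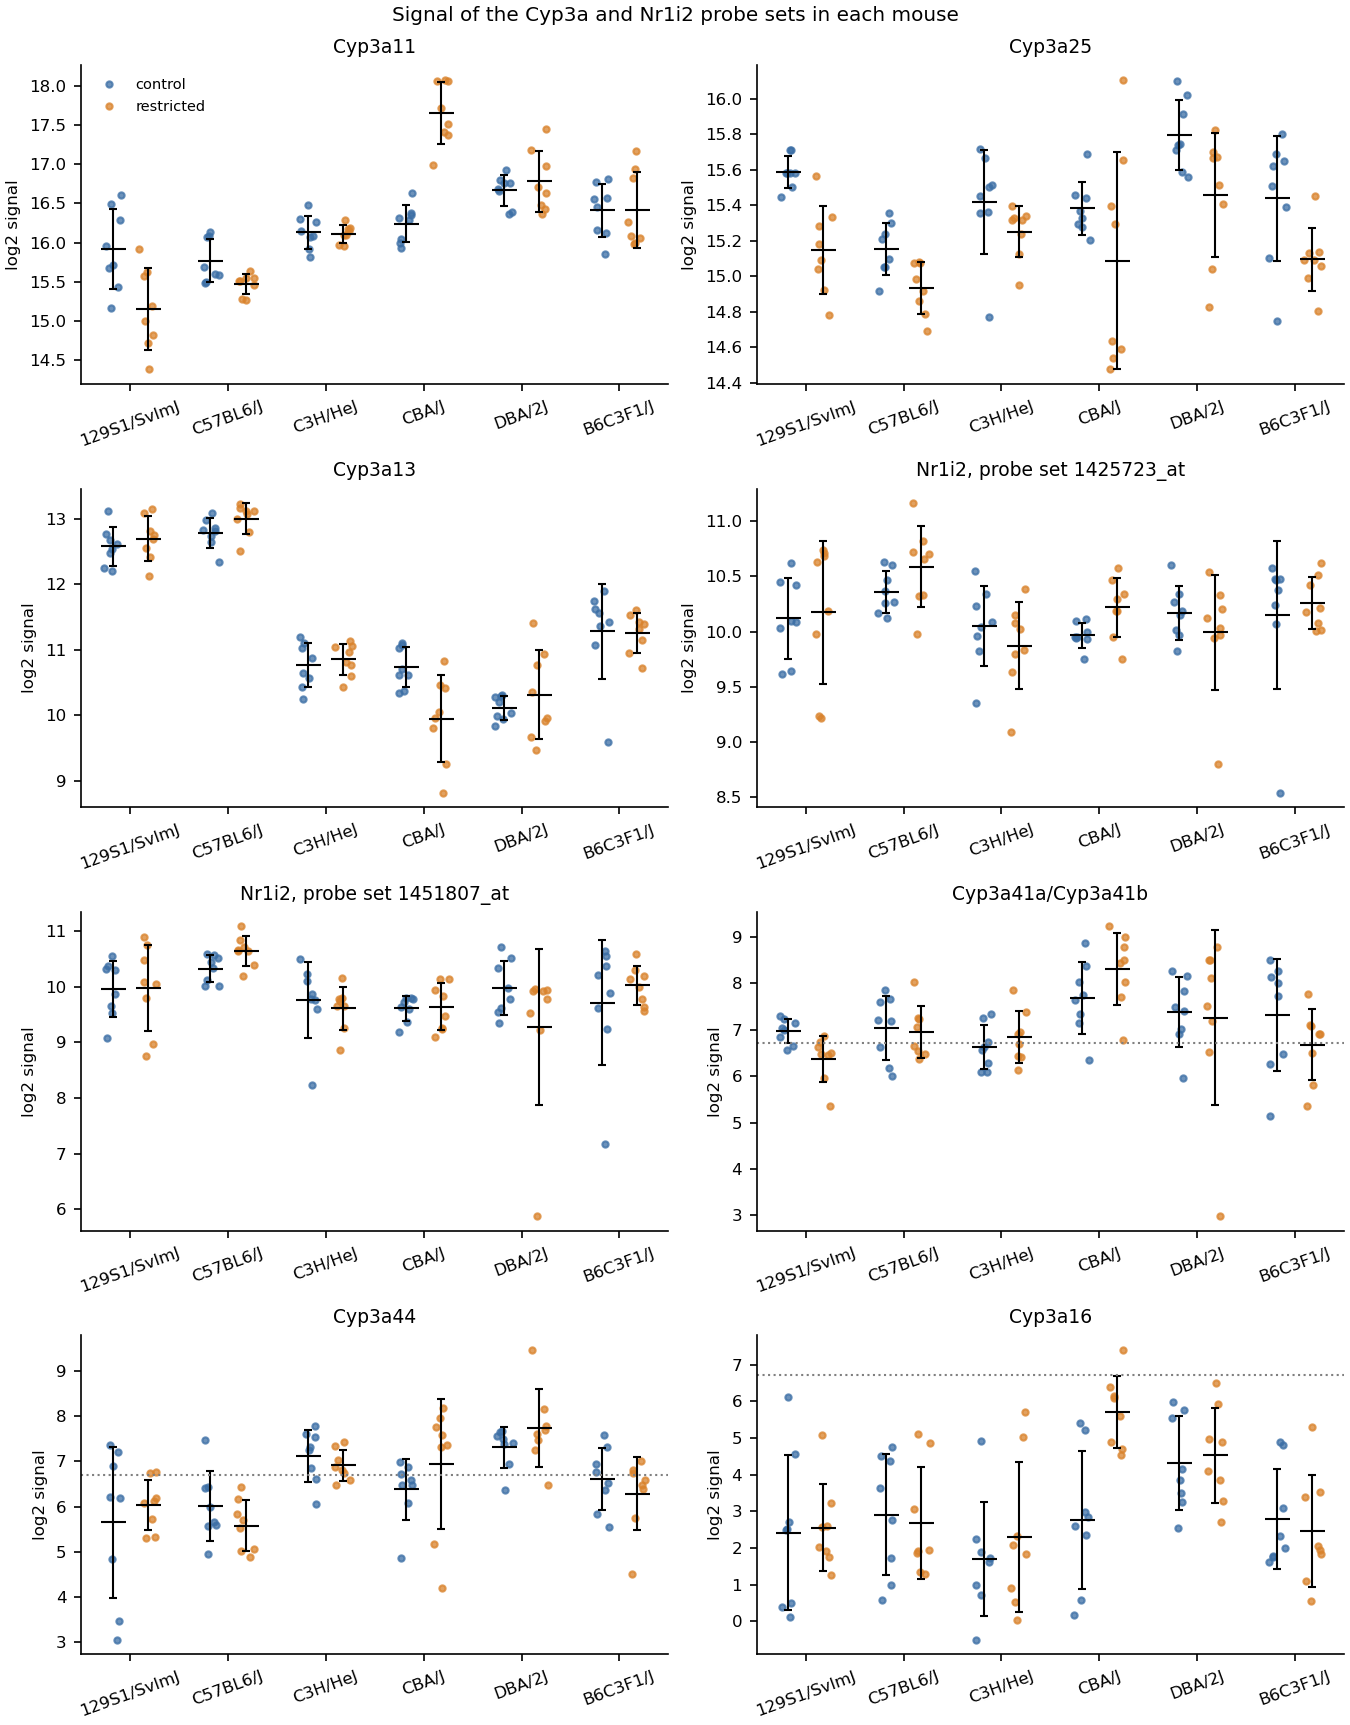
Log2 signal (vertical axis) of each member probe set in each of the 96 mice, by strain (horizontal axis), control in blue and restricted in orange; horizontal bars are group means, error bars are SD (n = 8), and the dotted line in the last 3 panels is the mean array median, 6.71. Cyp3a13 separates 129S1/SvImJ and C57BL6/J from the other strains, and the CBA/J restricted mice stand above their controls for Cyp3a11.

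Cyp3a13, read by 1 probe set, was the member whose signal differed most between strains. Whether the strains differ in sequence under the probes of this or other members was not tested. A strain difference in signal is therefore not by itself one in RNA level. On the control diet its log2 signal ranged from 12.33 to 13.08 in C57BL6/J (median 12.81) and from 12.20 to 13.12 in 129S1/SvImJ (median 12.57). It ranged from 9.59 to 11.89 in B6C3F1/J (median 11.49), from 10.25 to 11.19 in C3H/HeJ (median 10.76), from 10.34 to 11.09 in CBA/J (median 10.66) and from 9.83 to 10.31 in DBA/2J (median 10.12). Every 129S1/SvImJ and C57BL6/J control lay above every control of the other 4 strains. C57BL6/J was 6.38-fold higher than DBA/2J, a difference of 2.67 ± 0.21 (SE) on the log2 scale (limma adjusted p = 7.74e-20), and 4.06-fold higher than C3H/HeJ (adjusted p = 1.67e-13).

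An F test over the 6 control groups called 4 of the 7 members at an adjusted p under 0.05, against 35.8% of all probe sets tested. The adjusted p was 3.86e-24 for Cyp3a13, 1.23e-04 for Cyp3a11, 0.00638 for Cyp3a25 and 0.00757 for Cyp3a44. It was 0.299 for Cyp3a41a/Cyp3a41b, and 0.587 and 0.419 for the Nr1i2 probe sets. Between pairs of strains, 20 of 105 member comparisons were called, against 10% over all probe sets and pairs; p values were adjusted over probe sets within each pair. Of the 15 pairs, Cyp3a13 differed in 11, Cyp3a11 in 4, Cyp3a44 in 3 and Cyp3a25 in 2, and the other probe sets in 0.

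In the order of Cyp3a13 control levels the steps were uneven. C57BL6/J (12.78 ± 0.23, SD, n = 8) and 129S1/SvImJ (12.58 ± 0.29) were not called different (limma adjusted p = 0.586). The step from 129S1/SvImJ down to B6C3F1/J (11.28 ± 0.73) was called, with a difference of 1.29 ± 0.21 (adjusted p = 1.34e-06). The steps from B6C3F1/J to C3H/HeJ (10.76 ± 0.34) and from C3H/HeJ to CBA/J (10.73 ± 0.30) were not called, with adjusted p of 0.139 and 0.966. CBA/J lay above DBA/2J (10.11 ± 0.18) by 0.62 ± 0.21 (adjusted p = 0.0397). B6C3F1/J control replicate 2, an array of high median, gave the 9.59 that widens its group and lowers its mean. Without the 2 arrays of high median, 28 member comparisons between control strains were called in place of 20.

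Cyp3a11, the drug-inducible enzyme, had control means of 16.67 ± 0.20 in DBA/2J, 16.41 ± 0.34 in B6C3F1/J, 16.24 ± 0.23 in CBA/J, 16.13 ± 0.21 in C3H/HeJ, 15.92 ± 0.51 in 129S1/SvImJ and 15.77 ± 0.28 in C57BL6/J (SD, n = 8). No neighbours in that order were called different, with limma adjusted p from 0.390 to 0.831. Its ends were: DBA/2J was 1.86-fold higher than C57BL6/J (adjusted p = 6.53e-05) and 1.68-fold higher than 129S1/SvImJ (adjusted p = 0.00130). The place of C57BL6/J in this order rests on the scaling of the arrays. After quantile normalization, which gives every array the same distribution, Cyp3a11 averaged 16.40 in C57BL6/J controls, 15.68 in 129S1/SvImJ and 16.40 to 16.50 in the other 4 strains.

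Cyp3a25 control means spanned a narrow range, from 15.80 ± 0.20 in DBA/2J to 15.15 ± 0.15 in C57BL6/J (1.56-fold, adjusted p = 8.44e-04). The other called pair set 129S1/SvImJ (15.59 ± 0.09) 1.35-fold above C57BL6/J (adjusted p = 0.0365). The strain difference of Cyp3a25 was not called after quantile normalization (F test adjusted p = 0.557). Cyp3a44, near the array median, averaged 7.31 ± 0.45 in DBA/2J and 7.13 ± 0.58 in C3H/HeJ, and 6.01 ± 0.77 in C57BL6/J and 5.65 ± 1.68 in 129S1/SvImJ. DBA/2J was called higher than both of the last, by 1.31 ± 0.44 (adjusted p = 0.0386) and 1.66 ± 0.44 (adjusted p = 0.00637), and C3H/HeJ was called higher than 129S1/SvImJ by 1.48 ± 0.44 (adjusted p = 0.0153). The C57BL6/J and 129S1/SvImJ means lie below the mean array median of 6.71, where the size of a log2 difference is uncertain.

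On the restricted diet the F test called 7 of 7 members, against 60.4% of all probe sets, and 39 of 105 pairwise comparisons, against 20.2%. Of the 7, Cyp3a41a/Cyp3a41b lost the call without CBA/J (adjusted p = 0.425) and Cyp3a25 lost it when arrays were centred on the 75th percentile (adjusted p = 0.108). Cyp3a11 and Cyp3a13 each differed in 12 of 15 pairs. CBA/J (17.65 ± 0.40) led the Cyp3a11 order, above DBA/2J (16.78 ± 0.39) by 0.87 ± 0.17 (adjusted p = 4.86e-05), and C3H/HeJ (16.11 ± 0.11) lay above C57BL6/J (15.47 ± 0.13) by 0.64 ± 0.17 (adjusted p = 0.00688). This order too rests on the scaling: after quantile normalization the restricted means of Cyp3a11 were 16.39 in CBA/J, 16.38 in B6C3F1/J, 16.31 in C3H/HeJ, 16.28 in C57BL6/J and 16.26 in DBA/2J, with 129S1/SvImJ at 15.17. For Cyp3a13 the order again began with C57BL6/J (13.00 ± 0.24) and 129S1/SvImJ (12.70 ± 0.34), and ended with DBA/2J (10.31 ± 0.68) and CBA/J (9.95 ± 0.66). Nr1i2 was called across restricted strains with both probe sets (adjusted p = 0.0249 and 0.00510), with its highest mean in C57BL6/J, 10.59 ± 0.36 and 10.64 ± 0.27. The first probe set lost the call after quantile normalization (adjusted p = 0.141) and with 75th percentile centring (adjusted p = 0.0777).

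Calorie restriction, averaged over strains, lowered the signal of the Cyp3a25 probe set. This was 1 of 7 members called, against 22.7% of all probe sets called in either direction and 11.7% called lower. Any share of Cyp3a59 in that signal was not tested. In 129S1/SvImJ, Cyp3a25 ranged from 15.44 to 15.71 in controls (median 15.58) and from 14.78 to 15.57 in restricted mice (median 15.14), and 7 of the 8 restricted mice lay below every control. The medians were 15.15 and 14.95 in C57BL6/J, 15.48 and 15.32 in C3H/HeJ, and 15.35 and 14.96 in CBA/J, control first. They were 15.74 and 15.59 in DBA/2J, and 15.56 and 15.09 in B6C3F1/J. Groups overlapped in all 6 strains, while the restricted median was the lower in each.

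The averaged difference of Cyp3a25 was -0.30 ± 0.06 (SE; 95% interval -0.42 to -0.18; 8 mice a group), or 1.23-fold lower (limma adjusted p = 4.14e-05). Within strains it was -0.44 ± 0.15 in 129S1/SvImJ, -0.34 ± 0.15 in B6C3F1/J and in DBA/2J, -0.30 ± 0.15 in CBA/J, -0.22 ± 0.15 in C57BL6/J and -0.17 ± 0.15 in C3H/HeJ. None of these was called alone, with adjusted p of 0.0847 to 0.935. The interaction of strain and diet was not called for Cyp3a25 (adjusted p = 0.876), although it was after quantile normalization (adjusted p = 0.0308), where the CBA/J difference was -0.84 ± 0.14 (adjusted p = 1.85e-06). The averaged fall was called under all 13 alternatives, from -0.28 to -0.40, and was -0.30 ± 0.06 without CBA/J (adjusted p = 5.15e-05).

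Marker lists of other cell types moved in the same contrast. The mean signal of the 8 endothelial markers was higher with restriction by 0.14 on average (permutation adjusted p = 0.0124), with group means of 9.07 to 9.44 in controls and 9.23 to 9.56 in restricted mice, and 3 of 8 markers were called higher. For the 8 stellate cell and fibroblast markers the difference was 0.17 (adjusted p = 0.0321), with group means of 9.18 to 9.61 and 9.37 to 9.69, and 2 were called higher and 2 lower. The hepatocyte markers rose by 0.41 (permutation adjusted p = 9.1e-04), with 5 of 7 called higher and 0 lower. Without CBA/J the mean difference was 0.17. These markers are bright, and the 100 probe sets of highest mean signal had a median difference of 0.21, with 93% above 0. The part of the array scaling in the hepatocyte marker rise was not tested. Over all genes 14.3% were called higher and 12% lower. Of the other lists, 1 of 4 measured intestinal and 1 of 3 measured erythroid markers were called lower, and none of the measured Kupffer cell (8), cholangiocyte (4), lymphocyte (7), pancreatic acinar (1) and adipocyte (3) markers was called by limma. At an unadjusted p under 0.05 these counts were 4, 1, 1, 0 and 0. The part of these lists in the fall of Cyp3a25 was not tested.

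**Figure D2:**
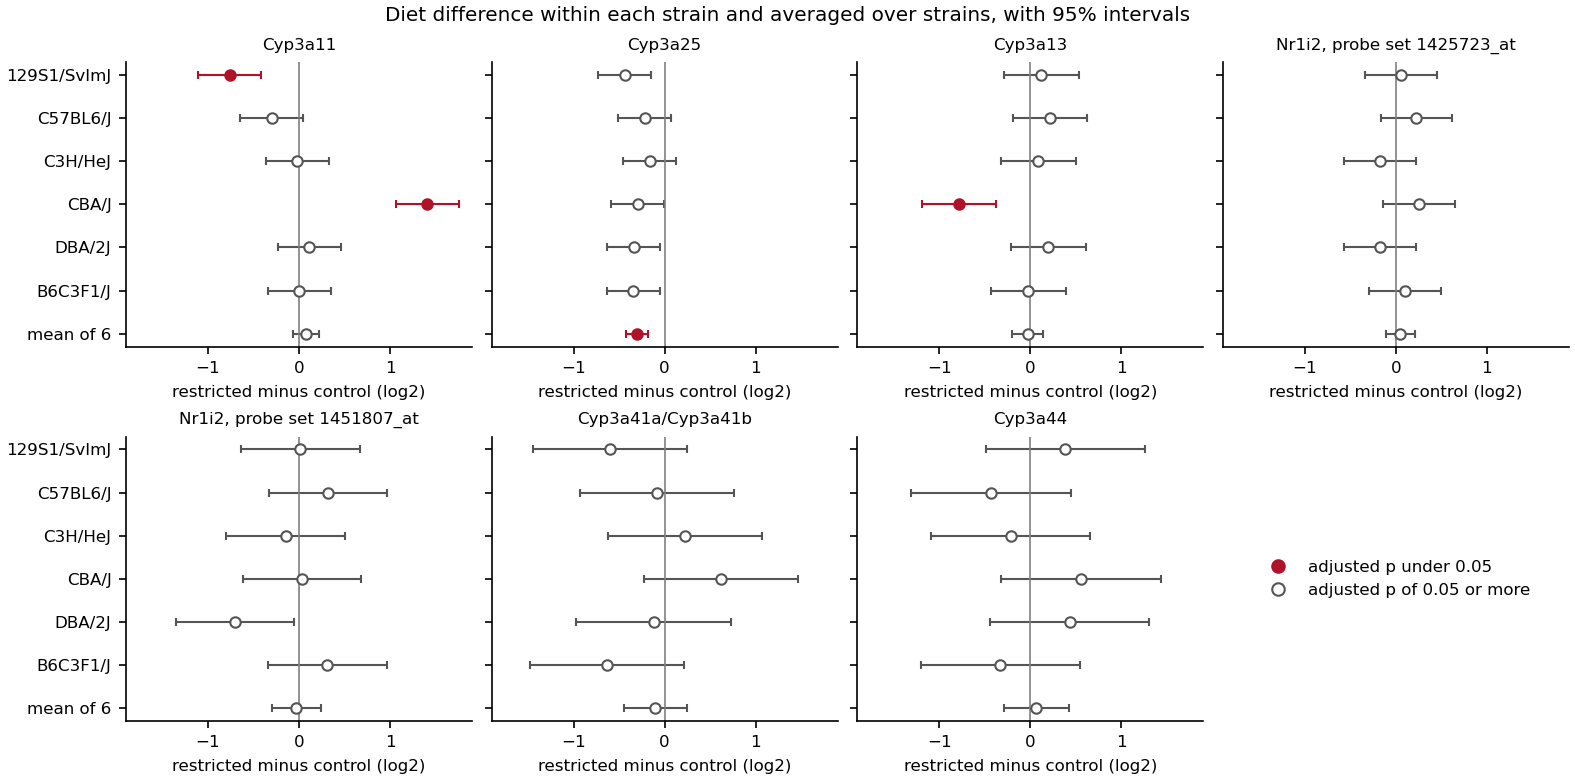
Diet difference, restricted minus control (horizontal axis, log2), of the 7 tested member probe sets in each strain and averaged over the 6 strains (vertical axis); points are limma estimates, bars are 95% intervals, and filled red points have an adjusted p under 0.05. The 4 filled points are Cyp3a11 in 129S1/SvImJ and CBA/J, Cyp3a13 in CBA/J and the averaged Cyp3a25, while all 6 strain points of Cyp3a25 lie left of 0.

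The other members gave no call in the averaged contrast. The difference was 0.07 ± 0.07 for Cyp3a11 (95% interval -0.07 to 0.22), -0.03 ± 0.08 for Cyp3a13 (-0.20 to 0.14), -0.10 ± 0.17 for Cyp3a41a/Cyp3a41b (-0.45 to 0.25) and 0.07 ± 0.18 for Cyp3a44 (-0.29 to 0.42). For Nr1i2 it was 0.05 ± 0.08 (-0.11 to 0.21) and -0.03 ± 0.13 (-0.29 to 0.24). Adjusted p values ran from 0.501 to 0.911. The value for Cyp3a11 is a mean of opposite strain values and depends on the scaling: after quantile normalization it was -0.18 ± 0.04 (adjusted p = 0.00136), and without CBA/J it was -0.19 ± 0.08 (adjusted p = 0.101).

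With the deposited scaling, Cyp3a11 was called in opposite directions in 2 strains. In CBA/J it ranged from 15.93 to 16.63 in controls (median 16.30) and from 16.99 to 18.08 in restricted mice (median 17.61), so the groups did not overlap. The difference was 1.41 ± 0.17, or 2.66-fold higher (adjusted p = 1.64e-10), and -0.0046 after quantile normalization (adjusted p = 0.980). In 129S1/SvImJ it ranged from 15.17 to 16.61 in controls (median 15.84) and from 14.38 to 15.92 in restricted mice (median 15.10), with 4 of 8 restricted mice below every control. That difference was -0.76 ± 0.17, or 1.69-fold lower (adjusted p = 0.00267; 0.0594 when only the 129S1/SvImJ arrays were fitted).

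These calls stand beside different backgrounds. In CBA/J 2 of 7 members were called against 35.6% of all probe sets, and in 129S1/SvImJ 1 of 7 against 3.32%. The second CBA/J call was Cyp3a13, which ranged from 10.34 to 11.09 in controls (median 10.66) and from 8.81 to 10.83 in restricted mice (mean 9.95 ± 0.66, SD). With 5 of 8 restricted mice below every control, the difference was -0.78 ± 0.21, or 1.72-fold lower (adjusted p = 0.00181). With the array median as a covariate it was -0.14 ± 0.20 (adjusted p = 0.664). CBA/J array medians did not overlap between the diets (6.42 to 6.63 in controls, 6.99 to 7.5 in restricted mice), so the covariate cannot be told apart from diet there. The 4000 probe sets of similar mean signal, given above, had a median CBA/J difference of -0.16, with 41.1% above 0. The part of that shift in the fall of Cyp3a13 was not tested.

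Limma called 0 of 7 members in the remaining strains. The background was 2.51% in C57BL6/J, 1.16% in C3H/HeJ, 5.39% in DBA/2J and 3.29% in B6C3F1/J. At an unadjusted p under 0.05 there were 0 members in C57BL6/J and C3H/HeJ, 2 in DBA/2J (Cyp3a25 and the second Nr1i2 probe set) and 1 in B6C3F1/J (Cyp3a25). Cyp3a11 differed by -0.30 ± 0.17 in C57BL6/J, -0.02 ± 0.17 in C3H/HeJ, 0.11 ± 0.17 in DBA/2J and 0.00 ± 0.17 in B6C3F1/J.

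The interaction of strain and diet was called for 2 of 7 members, against 18.7% of all probe sets: Cyp3a11 (adjusted p = 1.59e-09) and Cyp3a13 (adjusted p = 0.0444). Without CBA/J it was called for 0, with adjusted p of 0.177 for Cyp3a11 and 0.976 for Cyp3a13. The difference of diet effects between strains thus rests on CBA/J in both. After quantile normalization neither interaction was called, with adjusted p of 0.104 for Cyp3a11 and 0.186 for Cyp3a13.

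The CBA/J rise of Cyp3a11 lay close to the median of the brightest probe sets. Over the 100 probe sets of highest mean signal, the median CBA/J difference was 1.32 and 100% lay above 0, while over all tested probe sets it was 0.29. In rank of signal within an array, where rank 1 is the brightest, Cyp3a11 had a median rank of 30 in CBA/J controls and 30.5 in CBA/J restricted mice. Cyp3a25, another bright probe set, went from a median rank of 135.5 to 383 in the same mice.

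In 129S1/SvImJ the 100 brightest probe sets had a median difference of -0.28, and Cyp3a11 went from a median rank of 106.5 to 217.5. Its fall there remained after quantile normalization, at -0.52 ± 0.11 (adjusted p = 6.28e-04). In C57BL6/J the median rank of Cyp3a11 was 29.5 in controls and 34.5 in restricted mice, in C3H/HeJ 29.5 and 35.5, in DBA/2J 24.5 and 42, and in B6C3F1/J 22 and 32.5. The difference between 3' and 5' probe sets of Gapdh was -0.03 in CBA/J restricted and -0.40 in CBA/J control arrays (exact permutation p = 0.000155, adjusted p = 0.00354). The part of these array measures in the CBA/J results was not tested.

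**Figure D3:**
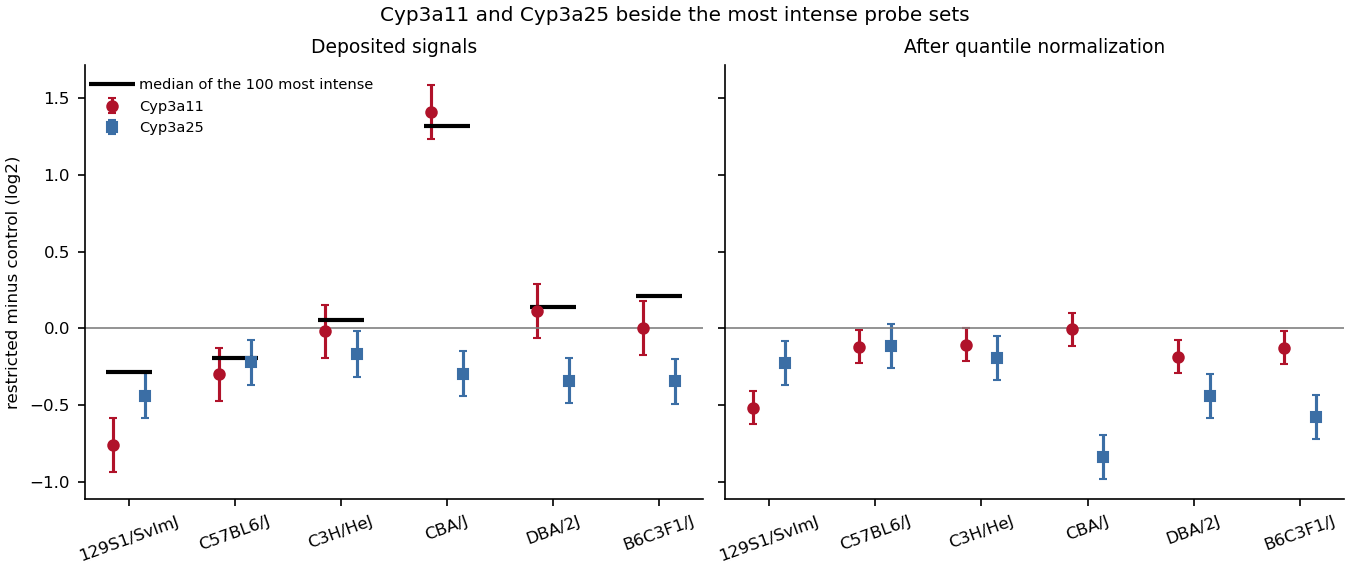
Diet difference, restricted minus control (vertical axis, log2), of Cyp3a11 and Cyp3a25 in each strain (horizontal axis), with deposited signals on the left and after quantile normalization on the right; error bars are SE, and black bars on the left are the median of the 100 most intense probe sets. In CBA/J the Cyp3a11 point, 1.41, lies beside the bar at 1.32 on the left and at -0.0046 on the right, while Cyp3a25 moves from -0.30 to -0.84.

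The female-predominant members stayed near the array median in these male livers. Cyp3a41a/Cyp3a41b had group means from 6.62 to 7.69 in controls and from 6.37 to 8.31 in restricted mice, with the highest of both in CBA/J. Cyp3a44 had group means from 5.65 to 7.31 and from 5.58 to 7.74, with the highest of both in DBA/2J. Their diet differences within strains ran from -0.64 ± 0.43 to 0.62 ± 0.43 and from -0.43 ± 0.44 to 0.56 ± 0.44, and none was called. The intervals are wide: in CBA/J they reach from -0.23 to 1.47 for Cyp3a41a/Cyp3a41b and from -0.32 to 1.44 for Cyp3a44.

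Cyp3a16 lay below the array median in 95 of 96 mice. Its group means ran from 1.70 ± 1.56 to 4.53 ± 1.29, except for 5.72 ± 0.98 in CBA/J restricted mice against 2.77 ± 1.88 in CBA/J controls. In a fit with no filter on dim probe sets that difference was 2.95 ± 0.78 (adjusted p = 0.00233). Both means are below the mean array median of 6.71, where the size of a log2 difference is uncertain, and the CBA/J restricted arrays had the raised medians given above. The interaction was not called in that fit (adjusted p = 0.145).

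Nr1i2 gave no call for diet in any strain, and none between control strains, with the deposited scaling. For the second probe set the F test between control strains was called with array weights (adjusted p = 0.00777) and in a fit that held each array's median as covariate (adjusted p = 0.0445). With the first probe set, control means ran from 9.97 ± 0.11 in CBA/J to 10.36 ± 0.19 in C57BL6/J, and with the second from 9.61 ± 0.23 to 10.33 ± 0.25 in the same strains. Diet differences ran from -0.18 ± 0.20 in DBA/2J to 0.25 ± 0.20 in CBA/J with the first, and from -0.70 ± 0.33 in DBA/2J to 0.32 ± 0.33 in C57BL6/J with the second. The DBA/2J value holds the array of high median and high 3' to 5' difference, where the second probe set read 5.88 against 9.23 in the next lowest mouse; without the 2 such arrays it was -0.22 ± 0.23. In CBA/J, taking the array median as a covariate moved the differences to 0.66 ± 0.21 and 1.03 ± 0.31 and made both calls (adjusted p = 0.0122 and 0.00686). CBA/J array medians did not overlap between the diets (6.42 to 6.63 in controls, 6.99 to 7.5 in restricted mice). Diet and array median therefore cannot be told apart in CBA/J, and no conclusion is drawn from these calls.

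The receptor and the enzymes were also compared mouse by mouse, as deviations from the mean of the mouse's own group (n = 96, 11 relations, permutation p values adjusted over them). The Nr1i2 probe sets varied together, with Pearson's r = 0.82 (p = 1e-05, the smallest the draws can give; adjusted p = 1.1e-04) and Spearman's rho = 0.70 (adjusted p = 1.1e-04). Without the 2 farthest mice r was 0.75. Cyp3a13 correlated with them at r = 0.47 and 0.46 (adjusted p = 0.0012 and 0.0021) and rho = 0.28 and 0.29 (adjusted p = 0.030 for both).

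That relation rests in part on the 2 arrays of high median, since without them r was 0.28 and 0.24. Each of the measures also followed the array median, at r = -0.39 and -0.57 for Nr1i2 and -0.59 for Cyp3a13, and with the array median taken into account r was 0.33 and 0.19. Cyp3a25 gave r = 0.25 and 0.20 (adjusted p = 0.079 and 0.25), and rho = 0.26 and 0.22 (adjusted p = 0.046 and 0.12). Cyp3a11, the classic target of the receptor, gave r = 0.11 and 0.03 (adjusted p = 0.50 and 0.81). With the array median taken into account its r was 0.25 and 0.24, beside the 0.33 and 0.19 of Cyp3a13, so the members are not set apart on that scale. For Cyp3a41a/Cyp3a41b r was -0.17 and -0.22, and for Cyp3a44 -0.04 and -0.06, with adjusted p of 0.28 to 0.80.

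**Figure D4:**
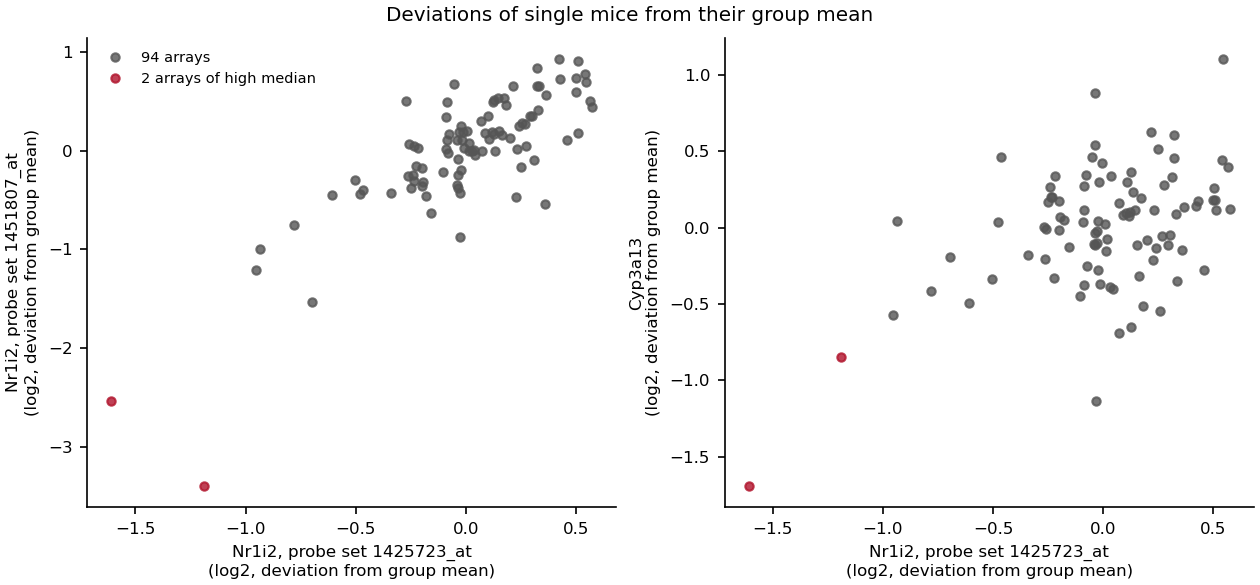
Deviation of each mouse from its group mean (log2), for the first Nr1i2 probe set (horizontal axis) against the other Nr1i2 probe set (left) and Cyp3a13 (right), with the 2 arrays of high median in red. The Nr1i2 probe sets run together (r = 0.82, and 0.75 without the red points), and the Cyp3a13 relation falls from 0.47 to 0.28 without them.

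The F1 cross allowed a comparison with the mean of its parents. On the control diet 1 of 7 members was called, against 7.29% of all probe sets. Cyp3a11 averaged 16.41 ± 0.34 in B6C3F1/J, above both C3H/HeJ (16.13 ± 0.21) and C57BL6/J (15.77 ± 0.28), and exceeded the mean of the parents by 0.46 ± 0.15 (adjusted p = 0.0448). That call was lost under 5 of 13 alternatives, among them quantile normalization (0.09 ± 0.09, adjusted p = 0.583). Cyp3a13 averaged 11.28 ± 0.73, between C57BL6/J (12.78 ± 0.23) and C3H/HeJ (10.76 ± 0.34), and lay below the mean of the parents by -0.49 ± 0.18 (adjusted p = 0.0748). Without the 2 arrays of high median the difference was -0.25 ± 0.16 (adjusted p = 0.409). These parental means are means of log2 values. Averaged as signals before the log2, Cyp3a13 stood at 12.12 for the parents and 11.4 for B6C3F1/J, with all arrays, and this difference was not tested. The diet effect of the cross differed from that of its parents for 0 of 7 members by limma, with 0 at an unadjusted p under 0.05, and 0% of all probe sets were called.

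Genes around the Cyp3a enzymes were read in the same averaged contrast, by lists. Over all 14813 genes, each by its brightest probe set, 14.3% were called higher and 12% lower, with a median of 0.07. Of the P450 and pregnane X receptor regulators, 19 of 24 were measured, and 4 were higher, 4 lower and 11 without a call (median -0.03); without CBA/J 2 were higher and 4 lower. Foxo1, a transcription factor restrained by insulin, rose by 0.64 ± 0.11 (adjusted p = 1.58e-06), and Ppargc1a, a coactivator of the fasting response, by 0.47 ± 0.09 (adjusted p = 1.16e-05). The fall of Hsp90aa1, a chaperone of receptor complexes, was -1.12 ± 0.09 (adjusted p = 7.85e-19), and that of Foxa3, a hepatic forkhead factor, was -1.06 ± 0.08 (adjusted p = 9.02e-22). Diet effects differed between strains for Foxo1 (interaction adjusted p = 0.0262), from 0.05 in C3H/HeJ to 1.34 in CBA/J, and for Hsp90aa1 (0.0405). A pair of receptors was looked up for their role after values were known: Rxra, the partner of Nr1i2, at -0.11 (adjusted p = 0.542), and Nr1i3, the related receptor CAR, at -0.82 (adjusted p = 2.16e-13). The value for Nr1i3 ran from -1.32 in DBA/2J to -0.15 in CBA/J (interaction adjusted p = 0.0118).

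Other targets of the xenobiotic receptors were mostly called, and in both directions. Of 26 such genes 23 were measured, with 10 higher and 8 lower (median 0.26). The glutathione transferases Gstm3 and Gstm2 rose by 2.94 ± 0.16 (adjusted p = 4.94e-27) and 1.04 ± 0.09 (adjusted p = 1.98e-16). Cyp2c29, a drug-metabolising P450, fell by 0.80 ± 0.10 (adjusted p = 3.28e-11), and Ephx1, the microsomal epoxide hydrolase, fell by 0.78 ± 0.09 (adjusted p = 6.04e-12). Both falls differed between strains (interaction adjusted p = 0.0109 and 1.48e-04). Ephx1 stood at -1.75 in 129S1/SvImJ and at 0.04 in CBA/J. Without CBA/J 8 were higher and 6 lower.

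Genes that supply P450 enzymes with electrons and haem also went both ways, with 6 higher and 4 lower of 15 measured among 17 (median 0.14). Cyb5r3, the cytochrome b5 reductase, rose by 0.76 ± 0.12 (adjusted p = 9.02e-08), and Ppox, a late enzyme of haem synthesis, by 0.48 ± 0.07 (adjusted p = 2.54e-08). Cpox, the step before Ppox, fell by 0.98 ± 0.10 (adjusted p = 8.46e-15), and Uros, an earlier step, fell by 0.27 ± 0.06 (adjusted p = 1.03e-04), a call lost when all probe sets of Uros were averaged (-0.05, adjusted p = 0.840).

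Sex-biased liver genes were read beside Cyp3a41a and Cyp3a44. Of 16 measured female-biased genes among 22, 11 were higher and 1 lower (median 1.40), and without CBA/J 10 and 0. Cyp39a1, an oxysterol hydroxylase, rose by 1.39 ± 0.10 (adjusted p = 1.11e-20) and Nipal1 by 1.46 ± 0.13 (adjusted p = 2.09e-16), while Acot3, an acyl-CoA thioesterase, fell by 0.49 ± 0.14 (adjusted p = 0.00700; -0.29 and 0.264 without CBA/J). Of 18 measured male-biased genes among 22, 1 was higher and 12 lower (median -0.46), and without CBA/J 0 and 13. Hsd3b5, a steroid dehydrogenase, fell by 2.60 ± 0.21 (adjusted p = 2.14e-18) and Serpina12 by 2.25 ± 0.17 (adjusted p = 8.60e-20). The gene called higher was Mup3, a urinary protein, at 0.40 ± 0.08 (adjusted p = 3.64e-05), and at 0.07 without CBA/J (adjusted p = 0.708) and -0.19 as the mean of its probe sets. Against these, the female-predominant members stood at -0.10 and 0.07, without a call. Of the genes named here, the interaction of strain and diet was called for Cyp39a1 (F test adjusted p = 0.00117), Hsd3b5 (0.00273), Serpina12 (1.87e-04) and Mup3 (6.59e-10).

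The genes whose 12 group means followed each member most closely are given as a description. For Cyp3a13 they were Oard1, Trmt61b and Snx6, with Pearson's r of 0.95 for each over the 12 groups, and of 0.92 to 0.94 after quantile normalization. For Cyp3a25 the closest was Sult2a8, a liver sulfotransferase, at 0.94, and at 0.97 over the 10 groups without CBA/J; the next, Fastkd5 and Zc3h15, stood at 0.85 and 0.84 and dropped to 0.23 and 0.01 after quantile normalization. Cyp3a11 was most like Micos10, Apoa5 and Gpx2, at 0.94, 0.94 and 0.93; Apoa5 kept 0.83 after quantile normalization, and the others 0.63 and 0.60. Cyp3a44 was most like Dusp11, Angptl7 and D630033O11Rik, at 0.95, 0.93 and 0.90, and Nr1i2 like Srpx2, 4833420G17Rik and Lhfp, at 0.90, 0.89 and 0.89.

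In the GRCm38.p6 gene table the Cyp3a genes lie on chromosome 5, with Cyp3a13 apart from the run that holds the rest, and Nr1i2 lies on chromosome 16. Of the 6 nearest measured neighbours of Cyp3a13, 0 were called for diet by limma, with 2 at an unadjusted p under 0.05, and 3 differed between control strains: Pilrb1, Azgp1 and Zkscan1. Between control strains 3 of 6 were also called beside the Cyp3a run, and 2 of 6 beside Nr1i2. Over all probe sets, 22.7% were called for diet and 35.8% between control strains. Pilrb1 was highest in C57BL6/J (8.48) and lowest in C3H/HeJ (7.73), whereas Azgp1, a plasma glycoprotein, and Zkscan1 were lowest in C57BL6/J. Beside the Cyp3a run, Rnf6 was called lower with restriction (-0.37 ± 0.11, adjusted p = 0.00489; 0.696 without CBA/J) and Cdk8 higher (0.19 ± 0.06, adjusted p = 0.0138). Beside Nr1i2, Lrrc58 was called lower (-0.43 ± 0.10, adjusted p = 2.58e-04; 0.288 without CBA/J).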

How the data were processed

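Liver RNA of 96 mice was measured on Affymetrix expression arrays, 1 array a mouse. The deposited values are probe set signal intensities made with MAS5, per the submitters' processing notes; its settings and the array build are not given there or in the labels. The intensities as deposited have a trimmed mean of 500.001 to 500.005 on every array (2% trimmed at each end), so arrays were scaled to a common mean and their distributions left to differ.

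Signals were taken to log2. Of 45101 probe sets, 64 controls were left out and 32984 with a signal at or above the array median on at least 8 arrays were tested. Names came from the platform annotation: 34958 probe sets had 1 symbol, 932 several and 9211 none, and 34754 matched the GRCm38.p6 gene table by gene ID with 0 symbols changed. Means of the 12 groups were fitted with limma 3.58.1 in R 4.3.3 (lmFit, then eBayes with trend and robust), and p values were adjusted by Benjamini-Hochberg over all tested probe sets; called means an adjusted p under 0.05. Array measures and relations between members used permutation tests (Python 3.11.15, numpy 2.4.6, scipy 1.17.1, pandas 2.3.3; figures with matplotlib 3.10.9). The fit was tested on simulated data of independent normal values. These had no differences in distribution between arrays, so that test does not cover such differences. The labels give 8 mice a group, and the number of arrays limits the precision.

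Members and gene lists were chosen with earlier results of these data known. Genes named beyond the members were, for each list, up to 2 called each way with the smallest p, the 3 genes most like each member over the 12 group means, and up to 3 measured neighbours on each side. Alternatives changed the normalization, scaling, offset, filter, unit tested, variance model, array weights, replicate block, covariate and arrays or strains included. Cyp3a59 is not analysed here.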

Additional observations from a re-analysis of the deposited data

Results flagged for a closer look

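Each of the 8 member probe sets gave a set of 8 values in each of the 12 groups. Chance gives an outlier in about 1 in 20 independent sets, but these sets share arrays and are not independent. In 9 of the 96 sets, 1 mouse lay far from the rest. Of these, 5 came from the 2 arrays of high median. B6C3F1/J control replicate 2 (array median 8.66) read 9.59 for Cyp3a13 against 11.07 in the nearest mouse, 8.54 for the first Nr1i2 probe set against 10.06, and 7.18 for the second against 9.24. DBA/2J restricted replicate 6 (array median 8.30) read 8.80 and 5.88 for the Nr1i2 probe sets, against 9.94 and 9.23.

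The others came from arrays with medians of 6.32 to 6.73. Cyp3a25 read 14.77 in C3H/HeJ control replicate 6, against 15.35 in the nearest mouse. The second Nr1i2 probe set read 8.23 in C3H/HeJ control replicate 8, against 9.60. The shared Cyp3a41a/Cyp3a41b probe set read 2.98 in DBA/2J restricted replicate 2, against 6.52, and Cyp3a44 read 4.86 in CBA/J control replicate 7, against 6.07.

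The diet effect differed between strains for Cyp3a11 (limma interaction adjusted p = 1.59e-09) and Cyp3a13 (adjusted p = 0.0444). Neither difference was called without CBA/J, with adjusted p of 0.177 and 0.976, or after quantile normalization, with adjusted p of 0.104 and 0.186.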

How the results depend on the processing

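Of 182 counts of member calls under alternatives, 164 stayed within 1.5 times the reported count. Quantile normalization gave 2 averaged diet calls in place of 1, and 1 in B6C3F1/J in place of 0; array weights also gave 1 in B6C3F1/J. In 129S1/SvImJ, array weights and leaving out the 2 arrays of high median each gave 2 in place of 1. The control difference between B6C3F1/J and its parents fell from 1 call to 0 under quantile normalization, centring on the 75th percentile, no variance trend, the array median as a covariate, and only the groups compared. Interaction calls fell from 2 to 1 under quantile normalization, 75th percentile centring, no filter, no variance trend and the array median as a covariate, and to 0 without CBA/J. Under quantile normalization the remaining call was Cyp3a25 (F test adjusted p = 0.0308), and neither Cyp3a11 nor Cyp3a13 was called. Called pairs of strains went from 20 to 38 with array weights on the control diet, and from 39 to 25 without CBA/J on the restricted diet. Among values called in either fit, signs turned under quantile normalization for Cyp3a11, to -0.18 averaged and -0.0046 in CBA/J, and for the neighbour Azgp1, to -0.12; that of Mup3 turned to -0.19 as a mean of probe sets. A further 60 uncalled values had another sign than reported, 46 of them member differences, such as Cyp3a11 in DBA/2J (-0.18 after quantile normalization). The causes were not tested. Over all probe sets, averaged diet calls went from 7503 to 4502 without CBA/J.

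With the replicate number as a replicate block, the averaged contrast called 1 member and the pairs of strains 22 and 40, against 20 and 39. Mice with the same number did not deviate together (2 of 48 correlations over 0.1, range -0.14 to 0.13; 10 correlated best with their own number), so the numbers do not pair the samples.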
